A study of Mus musculus with 2 samples.

Results

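The proliferin genes are the Prl2c members of the mouse prolactin family, and their transcripts were described here in mouse embryonic fibroblasts (MEFs) with and without the Hippo pathway kinase Lats2. The members were taken by name as every non-control array probe whose gene name starts with Prl2c, and the group had been selected on the KO over WT ratios that follow, so those ratios are given as a description with no test. Of 4 proliferin genes asked for, the array named 2, Prl2c3 with 3 probes and Prl2c5 with 2 probes, among 27579 gene names with a usable probe. No probe was named Prl2c2 or Prl2c4, although the reference table gives Prl2c4 as another name of Prl2c3 and the array design lists Prl2c2 transcripts for 4 of the 5 probes. The 2 RNAs compared were total RNA of untreated MEFs from LATS2-/- C57BL/6J mice (KO) and of untreated MEFs from LATS2+/+ C57BL/6J mice (WT). The study's text names WT littermate controls for its KO MEFs, without saying that these RNAs came from them. Each RNA was labelled with Cy5 (red) or Cy3 (green) and both were hybridised together to a whole mouse genome array, once with KO in Cy5 and once with KO in Cy3. The labels name no separate cultures, embryos or passages, so the 2 arrays were counted as 1 replicate of each genotype and the spread between them covers labelling and hybridisation only.

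Proliferins, first known as mitogen-regulated proteins, are secreted glycoproteins made in large amounts by the giant cells of the placental trophoblast. Their mRNA is also known from cultured mouse fibroblasts, where serum and growth factors raise it and the AP-1 family of transcription factors (Fos and Jun proteins) has been tied to its promoter. The secreted protein acts on endothelial cells, which it draws towards new vessels through the mannose phosphate receptor Igf2r, and proliferin-related protein (Prl7d1) of the same family has the opposite, anti-angiogenic activity.

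The promoters of both genes named on the array are shown because they let a reader see how alike the copies are at their start. They are RefSeq sequences on build GRCm38.p6, read 5′ to 3′ on the gene's own strand from 250 bases before the start site to 50 bases after it. Prl2c3 lies on the minus strand (chr13:12800030-12800329) and Prl2c5 on the plus strand (chr13:13182466-13182765). In order, the capitals mark AGATAA, which is the core letters that GATA factors bind, then the letters TATATAAG of the TATA box, and last, in Prl2c3 alone, the STAT5 motif TTCNNNGAA.
Prl2c3: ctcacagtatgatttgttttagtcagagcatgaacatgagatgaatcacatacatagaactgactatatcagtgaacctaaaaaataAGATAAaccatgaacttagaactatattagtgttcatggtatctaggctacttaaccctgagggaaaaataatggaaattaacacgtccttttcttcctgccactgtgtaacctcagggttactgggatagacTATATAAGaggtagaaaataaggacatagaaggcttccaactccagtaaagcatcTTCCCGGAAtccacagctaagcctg
Prl2c5: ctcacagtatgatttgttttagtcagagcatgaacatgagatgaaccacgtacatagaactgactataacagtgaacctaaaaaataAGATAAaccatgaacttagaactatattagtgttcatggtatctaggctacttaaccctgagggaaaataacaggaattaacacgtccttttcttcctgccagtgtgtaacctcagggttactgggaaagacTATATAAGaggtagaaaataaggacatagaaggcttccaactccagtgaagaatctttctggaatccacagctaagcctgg
Of 301 aligned columns, 287 (95.3%) were identical, 12 were mismatches and 2 were gaps. The AGATAA match began at position -163 from the start site in both promoters, and these letters occur in 11.2% of 32851 mouse promoters of the same length. The TATATAAG match began at -30 in Prl2c3 and at -31 in Prl2c5 and occurs in 1.01% of promoters. The TTCNNNGAA match began at position 26 of Prl2c3 and is held by 8.30% of promoters. Neither promoter held the AP-1 letters TGACTCA (5.20% of promoters), the TEAD letters CATTCC (14.7%), the letters CCAAT (37.4%) or the GATA forms AGATAG (8.95%), TGATAA (9.05%) and TGATAG (7.29%). All 9 motifs were searched on both strands, the matches did not overlap, and no match says only that the letters are not in this window.

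The files place all 5 probes on chromosome 13 of the NCBI36 (mm8) mouse build. The Prl2c3 probes lie on the minus strand in the order A_51_P312780 (12848492 to 12851986), A_51_P312779 (12847280 to 12848452) and A_52_P84814 (12846209 to 12847142) from the 5′ side of the gene. The Prl2c5 probes lie on the plus strand, with A_52_P511450 (13080289 to 13080348) on the 5′ side of A_52_P619248 (13080386 to 13081321). The listed positions of A_52_P511450 cover 60 bases, while those of the other 4 cover 934 to 3495 bases. Exon and UTR positions on that build were not analysed here. The probes cannot be assigned to single copies. The design lists transcripts of Prl2c3 and Prl2c2 together for 4 probes, of Prl2c1 for 2 probes and of Prl2c5 for 2 probes. A_52_P619248 was listed for Prl2c5 and Prl2c1 but not for Prl2c3 or Prl2c2, and A_52_P84814 for Prl2c3 and Prl2c2 but not for Prl2c5. The design names at most 4 accessions for any probe and all 5 Prl2c probes had 4, so a copy that is not listed may still match.

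The label of the KO RNA was looked at first. The array held 4 Lats2 probes, and their log2 ratios of KO over WT were 0.56, 0.56, 0.63 and -0.35, so that 3 of them read higher in the RNA that should lack the gene, while Lats1, the paralogous kinase, stood at -0.03. The labels do not say which part of Lats2 was deleted, and a probe outside that part checks nothing. The array values therefore did not bear out the label. The study's text also describes a western blot of Lats2 in its Lats2 KO MEFs, which is not analysed here. That text combines several independent cell lines for expression, and whether the RNAs here came from the blotted cells is not given. Every direction below is that of the RNA labelled KO against the RNA labelled WT. Over the 40875 probes with a ratio on both, the ratios of the 2 arrays, turned the same way, had an SD of 0.13 for a single hybridisation on the log2 scale. Of the fibroblast markers on the array, 15 of 15 were well above background in at least 1 of the RNAs, including the collagen genes Col1a1, Col1a2 and Col3a1, and Feature Extraction's flag (well above background) is meant by that term throughout. The RNAs are bulk extracts, in which more cells that make a transcript and more transcript per cell cannot be told apart.

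All 5 Prl2c probes gave far more signal in the RNA labelled KO than in the RNA labelled WT on both arrays. The values here are mean spot intensities in scanner units, before any correction. For Prl2c5, A_52_P619248 read 3070 in KO and 72.5 in WT with KO in Cy5, and 1174 in KO and 140 in WT with KO in Cy3. A_52_P511450 read 961 in KO and 44.2 in WT with KO in Cy5, and 408 in KO and 74.9 in WT with KO in Cy3. For each Prl2c5 probe both KO readings lay above both WT readings, so the order of the genotypes did not change with the dye. For Prl2c3, A_52_P84814 read 2170 in KO and 49.5 in WT with KO in Cy5, and 883 in KO and 92.1 in WT with KO in Cy3. A_51_P312779 read 1225 in KO and 60.1 in WT with KO in Cy5, and 546 in KO and 95.1 in WT with KO in Cy3. A_51_P312780 read 184 in KO and 43.1 in WT with KO in Cy5, and 96.1 in KO and 47.8 in WT with KO in Cy3. KO readings lay above WT readings for each Prl2c3 probe as well. The local background around these spots was 27 to 41 units, while the WT spots read 43.1 to 140, so the dimmer of them stood close to it. All 5 probes were well above background in KO on both arrays, 4 were so in WT on both arrays, and A_51_P312780 was not well above background in WT on either. None of the Prl2c spots was saturated or carried an outlier flag.

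**Figure D1:**
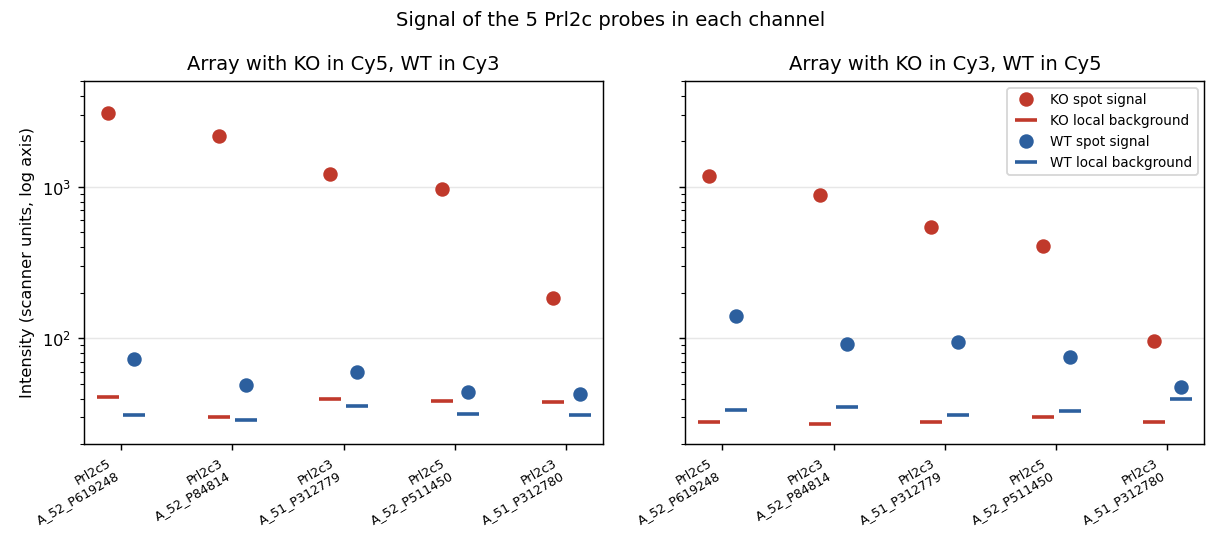
Mean spot intensity (circles) and local background (dashes) of the 5 Prl2c probes in scanner units on a log axis, with KO in red and WT in blue and each array in its own panel. KO spots run from 96.1 to 3070 units and lie above the WT spot of the same probe on both arrays, while the WT spots lie nearer to the background of 27 to 41 units.

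After background correction and dye normalisation the log2 ratio of KO over WT was positive for every Prl2c probe on each array. A_52_P619248 (Prl2c5) had 3.86 with KO in Cy5, 4.01 with the dyes exchanged, and a mean of 3.93 ± 0.10 (SD between the 2 hybridisations) or 15.3-fold. A_52_P84814 (Prl2c3) had 3.80 and 4.05, a mean of 3.92 ± 0.18 or 15.2-fold. Under this processing the difference between these probes, 0.01, lay within the SD between hybridisations and changed sign between the arrays (0.07 and -0.05). It was larger with Feature Extraction's own log ratio, where A_52_P619248 had 5.03 and A_52_P84814 had 5.55. The transcripts the design lists for them do not overlap. A_51_P312779 (Prl2c3) had 2.96 and 3.25, a mean of 3.11 ± 0.20 or 8.60-fold. A_52_P511450 (Prl2c5) had 2.92 and 3.05, a mean of 2.99 ± 0.10 or 7.92-fold. These differed from each other by 0.12, which is also within the SD for a single hybridisation, and lay 0.82 to 0.95 below the first pair. That gap is several times the SD, but its size depends on how the background was handled, as given below. A_51_P312780 (Prl2c3) had computed ratios of 1.001 and 1.35, a mean of 1.18 ± 0.25. Because its WT spots were not well above background, its ratio is known only as a bound of at least 2.21-fold, with mean normalised log2 levels of 7.28 in KO and 6.10 in WT, and its place below the other probes is not measured. The bound is the KO level against, on each array, the higher of the probe's own WT level and the lowest WT level among probes well above background. The median over the 5 probes, with this one as computed, was 3.11.

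Variation among the probes did not follow the gene names. The highest ratio of each gene came from its probe nearest the 3′ end (3.92 for Prl2c3 and 3.93 for Prl2c5), and the ratio of the next probe towards the 5′ side was lower, at 3.11 in Prl2c3 and 2.99 in Prl2c5. With Feature Extraction's own log ratio that step was small in Prl2c5, from 5.03 to 4.92, and in Prl2c3 it was from 5.55 to 4.67. The most 5′ probe of Prl2c3, A_51_P312780, has only a bound and cannot be placed in this order. The cDNA was primed from the poly(A) tail per the labels, and whether that has a part in this order was not tested. All 5 probes had a higher ratio with KO in Cy3 than with KO in Cy5, by 0.14 to 0.35, and the mean of both orientations was used for that reason.

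The spread among the probes depended on how the background was handled. With Feature Extraction's own processed signals, which carry that program's own background correction and dye normalisation, the ratios were 5.03 for A_52_P619248, 5.55 for A_52_P84814, 4.67 for A_51_P312779, 4.92 for A_52_P511450 and 5.03 for A_51_P312780. That is 25.4 to 47.0-fold, with a range of 0.89 between probes in place of a computed 2.76. The probe with the lowest ratio under the main processing, A_51_P312780, was then the second highest of the 5. A_52_P84814 then lay above A_52_P619248, and A_52_P511450 above A_51_P312779, the reverse of their order under the main processing. The order of the probes and the size of the gaps between them are therefore not settled. No direction changed: each probe's ratio under each setting tried was at least 2-fold towards KO, from 1.001 to 5.55 on the log2 scale.

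**Figure D2:**
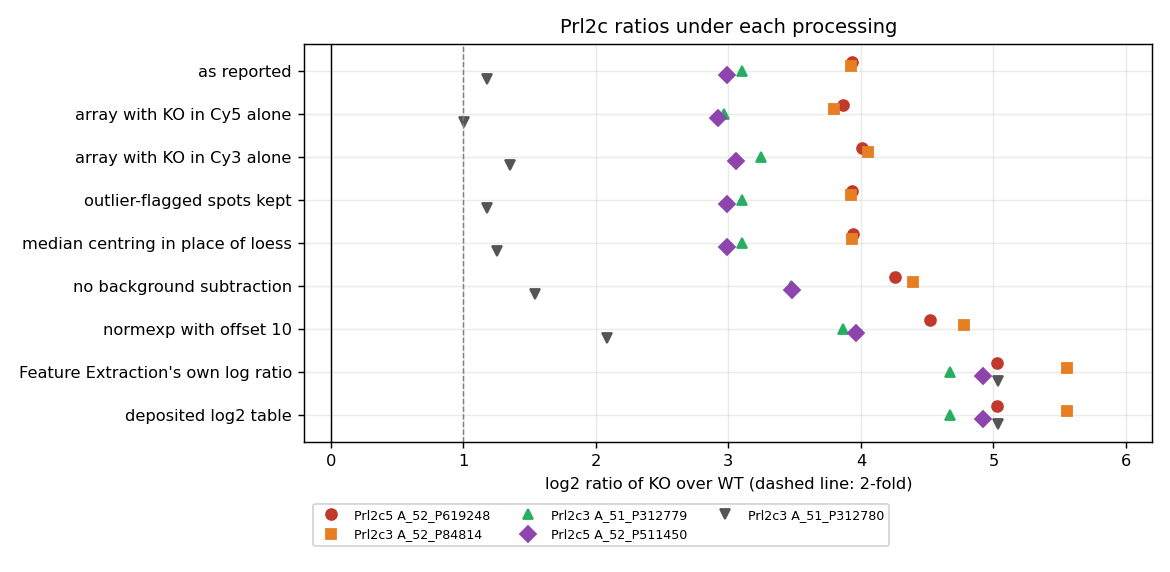
The computed log2 ratio of KO over WT (horizontal axis, dashed line at 2-fold) of each Prl2c probe under each processing (rows). All points lie at or right of the dashed line, from 1.001 to 5.55, and A_51_P312780 (dark grey triangle pointing down) joins the other probes only where Feature Extraction's ratio or the deposited table was used.

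Set against the whole array, 4 of the 5 probes lay among the largest ratios. A probe was called when it was at least 2-fold one way on both arrays and well above background on both arrays in the RNA where it was higher. By that rule 5 of 5 Prl2c probes were called higher in KO and 0 lower, beside 2.48% of 24186 probes called higher and 2.08% called lower. Since the Prl2c probes were chosen on this contrast, nothing is read from that count. Among the 40875 probes with a ratio on both arrays, 6 had a higher ratio than A_52_P619248 and 8 had a higher ratio than A_52_P84814. There were 48 probes above A_51_P312779 and 51 above A_52_P511450. A_51_P312780 has only a bound and so no rank, and its computed ratio sat at the threshold itself on the array with KO in Cy5 (1.001).

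**Figure D3:**
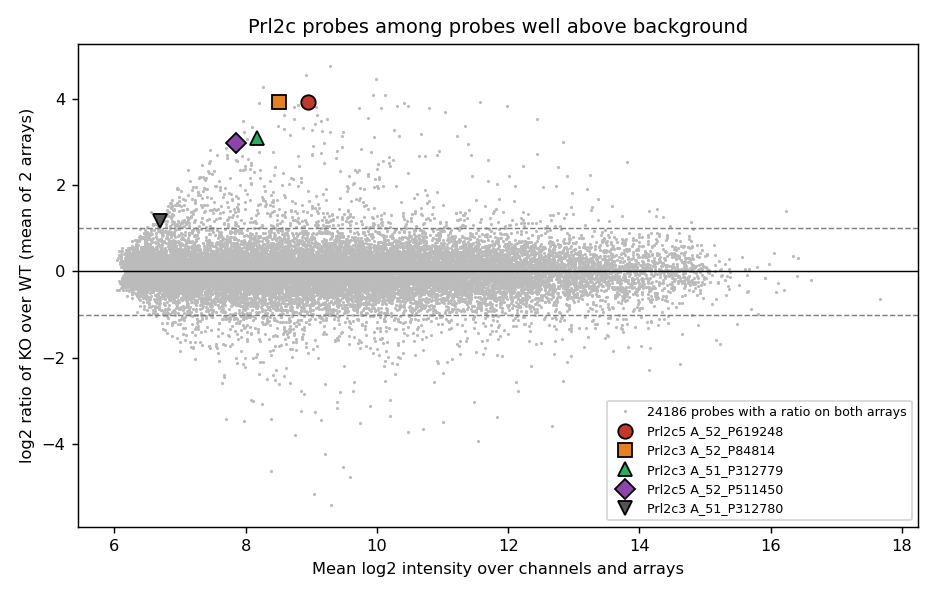
Mean log2 intensity against the log2 ratio of KO over WT (mean of 2 arrays, dashed lines at 2-fold) for 24186 probes that were well above background in the KO or the WT RNA, with the 5 Prl2c probes as coloured symbols. Prl2c probes sit in the upper part of the cloud, at 3.93, 3.92, 3.11 and 2.99. A_51_P312780 is drawn at its computed 1.18, although only a bound of at least 2.21-fold is known for it.

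The rest of the prolactin family was largely at background in these cells. All 24 of its other probes, for 21 genes, map to chromosome 13 as the proliferin probes do. Of these, 17 were not well above background in any of the 4 channels, among them both probes of Prl7d1 (0.01 and -0.08), the anti-angiogenic relative of proliferin. The median log2 ratio over the 24 probes, most of them at background, was 0.04. By brightest probe, 5 genes of the family were well above background in at least 1 of the RNAs. Of these, 1 was called higher in KO and 0 lower, beside 2.95% and 2.61% of all genes tested. The one called was Prl3d1, placental lactogen I of trophoblast giant cells, at 1.10 (1.11 with KO in Cy5, and 1.08 in the other orientation). Its neighbour Prl3d2 had a computed ratio of 1.03 and missed the call with 0.90 on the array with KO in Cy5, but it was well above background in WT on only 1 of the arrays, so these values may understate it. Prl3a1 was not well above background in WT on either array and has a bound of at least 1.47-fold, with mean normalised log2 levels of 6.60 in KO and 6.04 in WT. Prl3b1 (placental lactogen II) stood at 0.45 and prolactin itself (Prl) at 0.04, neither of them called. The 4 Prl2c probes well above background in both RNAs had ratios from 2.99 to 3.93, and the 3 other family probes well above background in both RNAs, those of Prl3d1, Prl3b1 and Prl, had ratios from 0.04 to 1.10. That gap has no test, since the Prl2c probes were chosen on it.

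**Figure D4:**
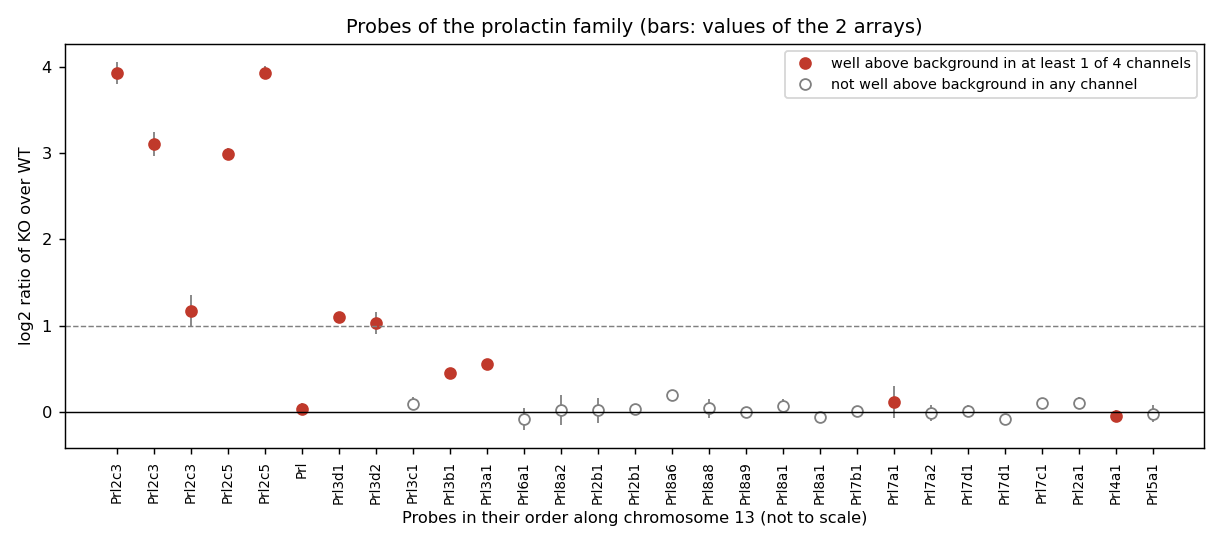
The log2 ratio of KO over WT of the 29 prolactin family probes in their order along chromosome 13, with bars joining the values of both arrays and open circles for probes not well above background in any channel. The 5 Prl2c probes at the left reach 3.93, Prl3d1 and Prl3d2 lie near the 2-fold line, and the others are drawn at or below 0.56. A_51_P312780 and Prl3a1 are drawn at their computed ratios, although only bounds of at least 2.21-fold and 1.47-fold are known for them.

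The receptors and relay molecules of prolactin family hormones were measured but not called. By brightest probe, all 10 listed genes were well above background in both RNAs. Of them, 0 were called higher and 0 lower, beside 2.95% of 15877 genes called higher and 2.61% called lower. Igf2r, the receptor through which proliferin acts on endothelial cells, had a log2 ratio of -0.14, and the prolactin receptor gene Prlr 0.20. The list ran from -0.71 for Socs3 to 0.63 for Cish, both feedback regulators of JAK-STAT signalling that STAT proteins induce, with a median of 0.11 beside -0.0011 over all probes.

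Among AP-1 subunits, 3 of the 7 genes well above background were called lower in KO and 0 higher, beside 2.61% and 2.95% of all genes tested. Fos fell by 3.73 on the log2 scale, Fosb fell by 3.16 and Junb fell by 1.51. Jun stood at -1.002 and was not called, with -0.98 on the array with KO in Cy5, while Fosl1 stood at 0.71, Fosl2 at 0.68 and Atf3 at 0.37. The Prl2c probes were higher in the RNA in which the Fos, Fosb and Junb probes were lower. The ratios of Fosl1, Fosl2 and Atf3 had the same sign as those of Prl2c, without a call. Of 12 serum and growth factor induced genes well above background, 3 were called lower, beside 2.61% of all genes tested: the immediate early transcription factor genes Egr1 (-3.95) and Egr2 (-1.43), and Ier2 (-1.72), an immediate early gene. In the same list 1 was called higher, the immediate early gene Ier3 (1.13), beside 2.95% of all genes. The other 8 were not called and all had ratios above 0, from 0.02 for Odc1 to 0.70 for Ccl7. Over the 12 genes the median was 0.28. The study's methods give 1 serum medium for MEFs, but cell density and time in culture when the RNA was taken are not given in the sources used here, and any part of these genes in the Prl2c ratios was not tested.

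Of the angiogenic factors and receptors, 2 of the 12 genes well above background were called higher in KO and 0 lower, beside 2.95% and 2.61% of all genes tested. These were Angptl4 (1.46), a secreted regulator of lipoprotein lipase and vessels, and Thbs1 (1.26), the gene of the anti-angiogenic thrombospondin 1. Flt1, a VEGF receptor gene, stood at 1.13 by its brightest probe and missed the call with 0.93 on the array with KO in Cy5, although 2 of its other probes were called higher (1.97 and 1.03). Vegfa stood at 0.26 and Pgf, the placental growth factor gene, at 0.28.

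Trophoblast cells are the main known source of proliferin, so their markers are given beside the Prl2c values. Of 18 trophoblast markers on the array, 5 were well above background, and 2 were called higher in KO (beside 2.95% of all genes tested, a share that holds for each marker list here, with 2.61% called lower), Prl3d1 (1.10) and the transcription factor gene Gata3 (2.87). The other markers well above background were Prl3b1 (0.45), Gata2 (0.28) and Ascl2 (-0.01). In all 4 channels 11 were at background, including the defining markers Hand1, Tpbpa, Ctsq, Gcm1, Cdx2 and Elf5. The summed normalised level of the list, on a linear scale that carries the offset of 50 units a gene, was 2290 and 2128 in KO and 1498 and 1490 in WT. For the fibroblast list it was 189069 and 179891 in KO and 275223 and 273095 in WT, with Postn (-1.69) and Col6a1 (-1.31), both matrix genes, called lower and 0 of 15 called higher. Of the endothelial markers, 5 of 7 were at background in all 4 channels and 0 were called, and the sums were 7973 and 9234 in KO and 4357 and 3924 in WT, with only Flt1 (1.13) well above background. Of the macrophage markers, 3 of 7 were at background in all channels and Cd14 (-1.05) was called lower, with sums of 613 and 621 in KO and 807 and 814 in WT. Of the epithelial markers, 4 of 5 were at background in all channels and Krt19 (2.12) was called higher, with sums of 647 and 569 in KO and 354 and 344 in WT. The part of any of these markers in the Prl2c ratios was not tested.

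**Figure D5:**
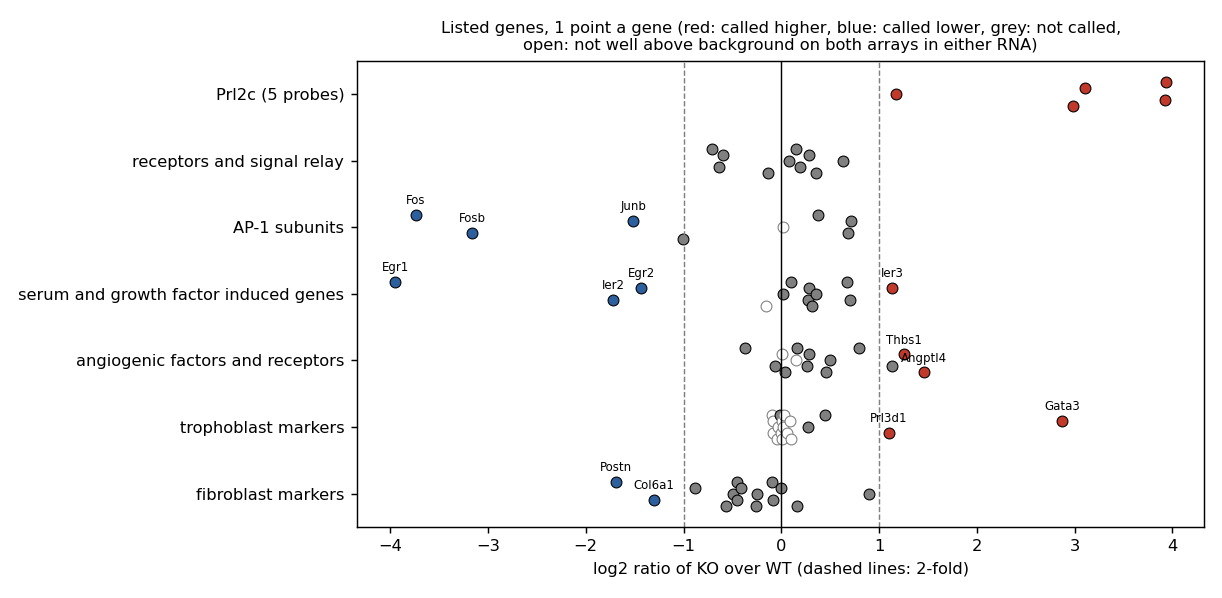
The log2 ratio of KO over WT (dashed lines at 2-fold) of the 5 Prl2c probes and of the genes of 6 lists, 1 point a gene by its brightest probe, red where called higher, blue where called lower, grey where not called and open where not well above background on both arrays in either RNA. Prl2c points lie between 1.18 (computed, for a probe known only as at least 2.21-fold) and 3.93. Fos, Fosb and Egr1 lie furthest to the left, and the receptor list lies within the dashed lines.

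The genes most like the median of the Prl2c probes were found among 4084 genes with a single probe well above background in both RNAs. Likeness was the Euclidean distance of a gene's pair of log2 ratios from that median pair. The median pair was 2.96 with KO in Cy5 and 3.25 in the other orientation, which is the pair of A_51_P312779. The means of A_52_P619248 and A_52_P84814 lay higher, at 3.93 and 3.92. Col8a2, a chain of collagen VIII, was nearest at a distance of 0.16, with ratios of 3.09 and 3.15. Ltbr, the lymphotoxin beta receptor gene, followed at 0.31, with ratios of 3.21 and 3.07. Pdk4, a kinase gene of the pyruvate dehydrogenase complex, lay at 0.31 with ratios of 2.80 and 2.98, Gata3 at 0.33 with 2.76 and 2.98, and Tmem88 at 0.35 with 3.31 and 3.18. All 5 distances rest on 2 arrays counted as 1 pair of RNAs, and likeness here means an equal ratio on these arrays and no more.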

How the data were processed

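Per the file headers, the arrays were read with Agilent Feature Extraction (version 10.5.1.1 per the submitters' processing notes), and the authors deposited each spot's mean signal and median local background as intensity in scanner units. The same deposited files hold Feature Extraction's log10 ratio of Cy5 over Cy3. A log2 table deposited by the authors equalled that ratio turned to KO over WT.

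Background was removed by limma 3.58.1 (R 4.3.3) with its normexp model and an offset of 50, which draws the ratios of dim probes to 0, and loess was fitted within each array. Control and outlier-flagged spots were left out, the second array was turned, and both arrays were averaged. Calls needed a log2 ratio of at least 1 on each array, the study's 2-fold threshold, since 1 replicate per genotype allows no test. A gene's brightest probe stood for it in lists.

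The members and the gene lists were chosen with earlier results of these data known. Genes named were all Prl2c probes, Lats2 and Lats1, listed genes that were called, Igf2r, Prlr, Prl7d1, defining markers at background and the 5 nearest by ratio; other listed genes were named after their values were seen. From the serum list, 1 gene is not reported here and was left out of its counts. Motifs were counted and promoters aligned with Biopython 1.88 in Python 3.11.15. The steps were checked on simulated data. Alternatives were other ratio sources, centring, offset, background, flags, arrays, probe choice, filter on dim probes and test.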

Additional observations from a re-analysis of the deposited data

How the results depend on the processing

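Of 118 recomputed values, 75 stayed within the spread between hybridisations (or within 1.5 times, for a count) and 43 moved. No Prl2c ratio changed sign, while the median of the epithelial markers went from 0.0029 to -0.0075 with Feature Extraction's ratio and that of the endothelial markers from -0.0039 to 0.0073 with an offset of 10. The Prl2c median moved from 3.11 to 5.03 with Feature Extraction's ratio, to 5.03 with the deposited log2 table, to 3.96 with an offset of 10, to 3.48 with no background subtraction, and to 2.96 and 3.25 with the array with KO in Cy5 or in Cy3 alone. Averaged over its probes in place of its brightest, Prl2c3 moved to 2.73 and Prl2c5 to 3.46. Probes called higher over the whole array moved from 599 to 1280 and lower from 503 to 1220 with Feature Extraction's ratio, and to 321 and 169 with median centring. The methods' t-test, taken over the 2 arrays, called 524 higher and 443 lower at its unadjusted threshold, and 0 and 0 after Benjamini-Hochberg adjustment. No paired analysis was possible because KO and WT have only 1 replicate apiece.

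The WT spots were dim and some stood close to background, so the size of each Prl2c ratio depends on the background step more than its direction does. The arrays were counted as holding 1 RNA of each genotype, so no spread between cultures or embryos is known. No Prl2c probe can be assigned to a single proliferin copy, and how far each probe matches each copy was not checked.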

Other observations

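The genes beside the proliferin genes are given as values. They were chosen after the values were seen. The 10 were the 5 nearest protein-coding genes with a usable probe on each side of the Prl2c genes, and other genes were passed over. Their order is that of the reference table (GRCm38.p6, used for names and order). Of the 10, 8 were well above background in at least 1 of the RNAs. Among these genes 0 were called higher and 0 lower, beside 2.95% and 2.61% of all genes tested, so that a count of 0 is near that background. Their log2 ratios of KO over WT ran from -0.31 for Gpr137b to 0.33 for Heatr1, with a median of -0.13. Edaradd, the nearest of the 10 to Prl2c3, stood at 0.08 and was not well above background in either RNA. Gpr137b, the nearest of the 10 to Prl2c5, gave 0.01 with KO in Cy5, but -0.63 in the other orientation. Its value thus differed between the arrays by more than any Prl2c probe's did.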
